A study of Mus musculus with 6 samples.

Results

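The 9 genes described here encode the route by which an interferon outside the cell changes transcription in the nucleus: the receptor chains *Ifngr1*, *Ifngr2*, *Ifnar1* and *Ifnar2*, the receptor kinases *Jak1* and *Jak2*, and the transcription factors *Stat2*, *Irf9* and *Irf1*. They were taken by name from a table of 40166 mouse genes, and all 9 were found and could be tested. RNA was sequenced from 6 subcutaneous YUMM3.3 tumors in C57BL/6 mice, 3 given water as vehicle (0 mg/kg) and 3 given rigosertib (RGS) at 300 mg/kg by oral gavage, and all were taken at 17 days of treatment. The YUMM3.3 line comes from a mouse melanoma that carries mutant BRAF, and the injected cells grew in immunocompetent hosts. RGS is described as a RAS mimetic that can block RAS from binding its effectors, and other actions have been reported for it. Each tumor gave 1 bulk library, and the mice were 8 to 10 weeks old when the tumors were started. The study describes the sequenced tumors as a mixture of tumor, stromal and immune cells. The tumors are called by the numbers in their labels, vehicle replicates 7 to 9 and RGS replicates 10 to 12. Since the labels do not say whether each tumor came from its own mouse, the p-values measure the spread between these 6 samples.

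Interferon gamma binds a receptor made of IFNGR1, the main binding chain, and IFNGR2, the chain that brings in a second kinase. JAK1 sits on IFNGR1 and JAK2 on IFNGR2, and together they switch on transcription through a DNA element called GAS. Type I interferons bind IFNAR1 and IFNAR2, whose kinases TYK2 and JAK1 activate STAT2. STAT2 acts with IRF9 in a complex called ISGF3, which binds the element called ISRE. IRF1 is itself switched on by interferon gamma through a GAS element and then drives further genes, among them those of antigen presentation. Many genes of this route, *Stat2*, *Irf9* and *Irf1* included, are themselves induced by interferon, and tumor cells that lose parts of it escape T cells more easily.

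The promoters of the members were searched for the letters of these elements, since those are the sites through which the end of the route acts. RefSeq windows from 250 bases before to 50 bases after the start site on GRCm38.p6, 300 bases in all, were available for all 9. On both strands, TTCNNNGAA was taken as GAS and GAAANNGAAA, or TTTCNNTTTC on the other strand, as ISRE. A GAS match lay in 8.30% of 32851 mouse windows and an ISRE match in 3.44%, and the letters of these motifs did not overlap in any member. The stretches with a match are given here from 5′ to 3′, with the matching bases in capitals.
Irf1, chr11:53769884-53769972, plus strand: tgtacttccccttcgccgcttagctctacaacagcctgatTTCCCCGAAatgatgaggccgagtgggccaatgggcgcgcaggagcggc
Stat2, chr10:128270248-128270325, plus strand: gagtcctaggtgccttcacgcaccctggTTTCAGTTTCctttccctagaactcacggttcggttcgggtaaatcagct
Ifnar1, chr16:91485170-91485218, plus strand: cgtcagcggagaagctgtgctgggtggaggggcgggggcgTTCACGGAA
Ifnar2, chr16:91372533-91372617, plus strand: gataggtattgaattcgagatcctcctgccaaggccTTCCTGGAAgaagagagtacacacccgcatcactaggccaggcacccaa
The *Irf1* match is a GAS 90 bases before the start, and the *Stat2* match is an ISRE 222 bases before it. *Ifnar1* had a GAS match whose first base lies 5 bases before the start and which runs across it, and *Ifnar2* had a GAS match 214 bases before the start. No match was found in the windows of *Ifngr1*, *Ifngr2*, *Jak1*, *Jak2* and *Irf9*, which says only that these letters are not in those windows. A match in the letters is a description and does not show that a factor binds there.

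Against this background the transcription factors of the route were lower in RGS tumors, and the receptors and kinases were not. *Stat2*, *Irf9* and *Irf1* fell by 2.0, 2.75 and 1.51 on the log2 scale, *Ifnar1* rose by 0.85, and the other 5 members did not pass the test (edgeR quasi-likelihood test, Benjamini-Hochberg adjusted p under 0.05 over 15355 tested genes). Thus 3 of 9 members were called lower, against 16.5% of all tested genes, and 1 of 9 higher, against 16.3%. The CPM of vehicle and RGS tumors did not overlap for 4 of 9 members, the same share as in the table at large, where it held for 45.8% of the tested genes. CPM here is the read count scaled by edgeR to a common library size with TMM factors. No member entered the test through 1 group alone, since the smallest count of any member in any tumor was 102 reads, for *Irf9* in RGS replicate 11. The median log2 fold change of all tested genes was -0.05.

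**Figure D1:**
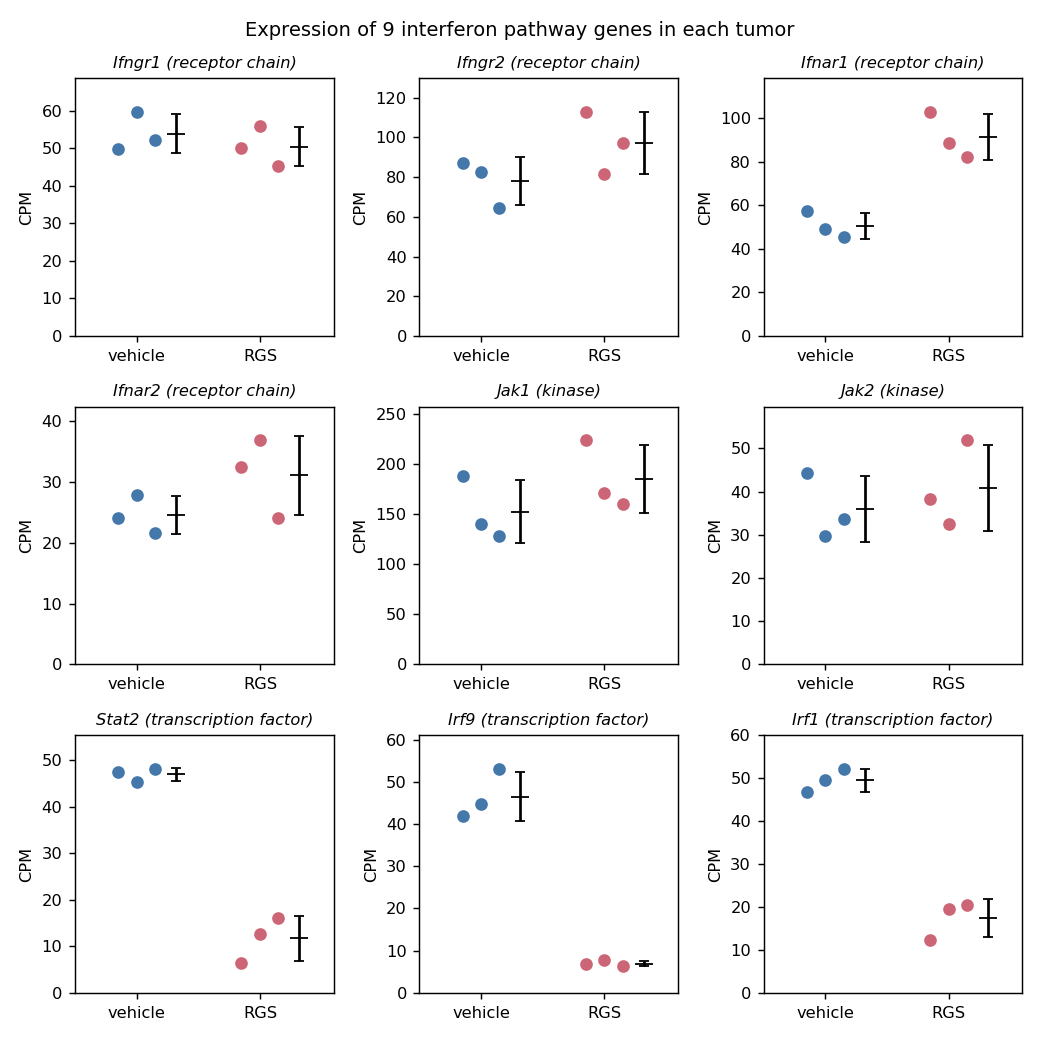
CPM of each of the 9 members (vertical axis, from 0) in 3 vehicle tumors (blue) and 3 RGS tumors (red), 1 point per tumor, with the group mean and SD in black. *Stat2*, *Irf9* and *Irf1* lie lower in every RGS tumor and *Ifnar1* higher, while the points of the other 5 overlap.

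*Irf9*, the DNA-binding part of ISGF3, had the largest change of the members. Its level was 41.8, 44.7 and 53.1 CPM in the vehicle tumors and 6.77, 7.68 and 6.36 CPM in the RGS tumors. All 3 RGS tumors lay close together and far under the vehicle tumors. The means were 46.5 ± 5.85 and 6.94 ± 0.677 CPM (SD, n = 3), a level 6.71-fold lower with RGS, and the log2 fold change was -2.75 with a standard error of 0.22 and a 95% interval from -3.22 to -2.27 (edgeR, adjusted p = 3.9e-08). Of all tested genes, 5.03% had a lower log2 fold change. *Irf9* lies on chr14:55603571-55610030 (GRCm38, plus strand), and 123 of its 5386 exon bases are shared with the last part of *Rnf31*, a ubiquitin ligase gene on the same strand. *Rnf31* was itself lower with RGS, with a log2 fold change of -0.80 (edgeR, adjusted p = 0.00469), and reads in the shared bases cannot be assigned to either gene.

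*Stat2*, the partner that gives ISGF3 its activation domain, was at 47.5, 45.4 and 48.2 CPM with vehicle and at 6.53, 12.7 and 16.1 CPM with RGS. The vehicle tumors were nearly equal, while the RGS tumors differed among themselves by more than they did for *Irf9*. The level was 4.01-fold lower with RGS, with means of 47.0 ± 1.42 and 11.8 ± 4.85 CPM (SD, n = 3). Its log2 fold change was -2.0 with a standard error of 0.27 and a 95% interval from -2.56 to -1.44 (edgeR, adjusted p = 1.4e-05). *Stat2* lies on chr10:128270559-128292849 (plus strand), in 19 exon blocks, and no other gene of the annotation overlaps it.

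*Irf1*, a factor that acts downstream of interferon gamma, was at 46.8, 49.7 and 52.2 CPM with vehicle and at 12.3, 19.5 and 20.5 CPM with RGS. As for *Stat2*, RGS replicate 10 was the lowest of the 6 tumors. The level was 2.85-fold lower with RGS, with means of 49.6 ± 2.68 and 17.4 ± 4.47 CPM (SD, n = 3), and the log2 fold change was -1.51 with a standard error of 0.22 and a 95% interval from -1.97 to -1.05 (edgeR, adjusted p = 3.5e-05). *Irf1* lies on chr11:53770014-53778374 (plus strand). The opposite-strand gene *Gm17334*, which shares 135 of its exon bases, had at most 3 counts in any tumor.

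*Ifnar1*, the chain of the type I receptor that carries TYK2, was the only member called higher. It was at 57.2, 49.1 and 45.5 CPM with vehicle and at 103, 88.7 and 82.0 CPM with RGS. Every RGS tumor lay above every vehicle tumor. The means were 50.6 ± 5.98 and 91.2 ± 10.6 CPM (SD, n = 3), a level 1.80-fold higher with RGS, and the log2 fold change was 0.85 with a standard error of 0.17 and a 95% interval from 0.49 to 1.21 (edgeR, adjusted p = 8.24e-04). Of all tested genes, 83.0% had a lower log2 fold change.

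Its partner *Ifnar2*, the chain that binds type I interferon most tightly and carries JAK1, was at 24.1, 27.8 and 21.6 CPM with vehicle and at 32.3, 36.8 and 24.0 CPM with RGS. The groups overlapped through RGS replicate 12, which lay under vehicle replicates 7 and 8. The log2 fold change was 0.34 with a 95% interval from -0.12 to 0.80 (edgeR, adjusted p = 0.251), which includes no change and a rise nearly as large as that of *Ifnar1*. *Ifnar2* shares 315 exon bases with the annotated gene *Gm21970* on the same strand, for which no counts were used here.

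For the interferon gamma receptor, *Ifngr1* was at 49.9, 59.7 and 52.2 CPM with vehicle and at 50.2, 55.9 and 45.5 CPM with RGS. These values overlapped throughout, with means of 53.9 ± 5.13 and 50.5 ± 5.23 CPM (SD, n = 3). The log2 fold change was -0.10 with a 95% interval from -0.46 to 0.27 (edgeR, adjusted p = 0.718). *Ifngr2* was at 86.8, 82.7 and 64.5 CPM with vehicle and at 113, 81.6 and 97.2 CPM with RGS. Here RGS replicate 11 lay within the vehicle range and the other RGS tumors above it. The log2 fold change was 0.32 with a 95% interval from -0.05 to 0.69 (edgeR, adjusted p = 0.178), so a fall of the size seen for the 3 factors lies outside the intervals of both chains.

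*Jak1*, the kinase that both receptors use, was at 188, 140 and 129 CPM with vehicle and at 224, 171 and 160 CPM with RGS. The groups overlapped because vehicle replicate 7 lay above RGS replicates 11 and 12. The log2 fold change was 0.28 with a 95% interval from -0.09 to 0.65 (edgeR, adjusted p = 0.243). Without vehicle replicate 7 it was 0.46 and passed the test (edgeR, adjusted p = 0.0222). Without RGS replicate 10 it was 0.12 and did not pass (edgeR, adjusted p = 0.664), so the estimate moved both ways with the tumor left out. *Jak2*, the kinase of IFNGR2, was at 44.4, 29.7 and 33.6 CPM with vehicle and at 38.3, 32.5 and 51.8 CPM with RGS. Its tumors were mixed, with the highest and the lowest values in different groups and 1 high tumor in each. The log2 fold change was 0.19 with a 95% interval from -0.27 to 0.64 (edgeR, adjusted p = 0.548). It was -0.04 without RGS replicate 12, the highest of the 6 tumors.

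**Figure D2:**
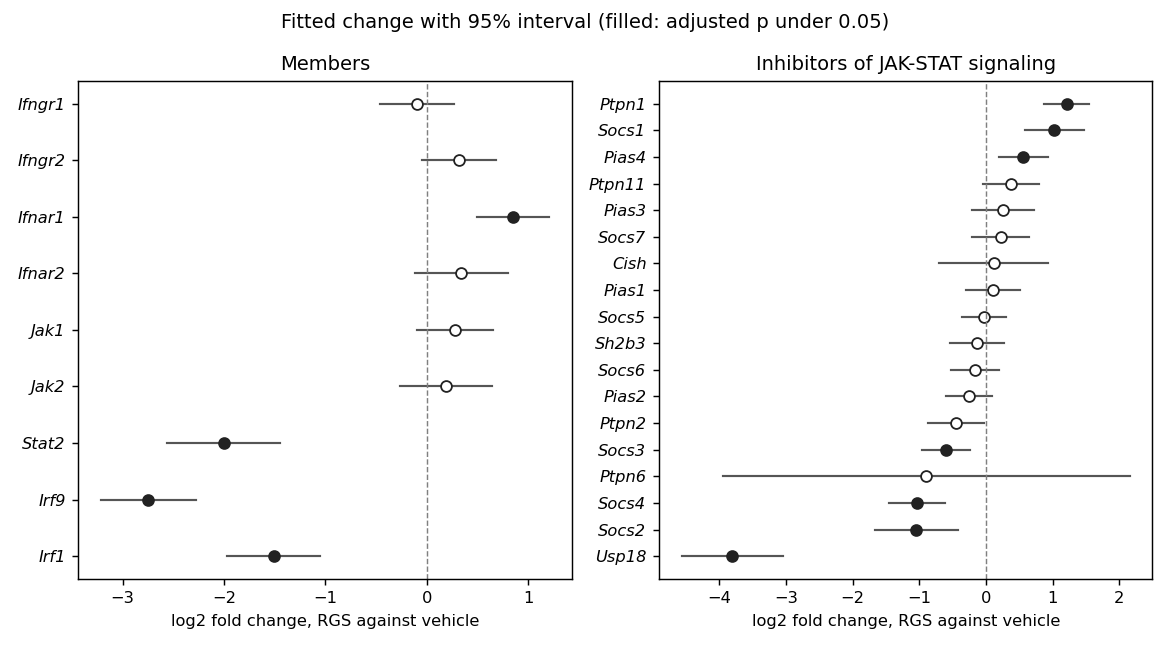
Log2 fold change of RGS against vehicle (horizontal axis) with its 95% interval for the 9 members (left) and for 18 inhibitors of JAK-STAT signaling (right), filled where the adjusted p is under 0.05. The 3 transcription factors lie left of 0 with intervals that end at or under -1.05, *Ifnar1* lies right of 0, and the inhibitors spread to both sides.

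Divided by the length of their exons, the members could be set in order of level. The length used is that of all annotated exon bases merged, 5386 for *Irf9* and 2847 for *Ifngr1*, and not that of the transcripts expressed. The order between genes depends on these lengths, and which transcripts were expressed was not tested. In vehicle tumors the order of mean CPM per kilobase was *Jak1* 21.1, *Ifngr2* 20.7, *Ifngr1* 18.9, *Irf1* 12.5, *Irf9* 8.64, *Ifnar1* 8.52, *Stat2* 7.94, *Ifnar2* 7.36 and *Jak2* 7.14. Only the steps from *Ifngr1* to *Irf1* and from *Irf1* to *Irf9* were larger than the spread between tumors, in that the ranges of the neighbours did not overlap. In RGS tumors the order was *Ifngr2* 25.8, *Jak1* 25.6, *Ifngr1* 17.7, *Ifnar1* 15.4, *Ifnar2* 9.32, *Jak2* 8.13, *Irf1* 4.39, *Stat2* 1.99 and *Irf9* 1.29. Here the ranges were apart between *Jak1* and *Ifngr1*, *Ifnar1* and *Ifnar2*, *Jak2* and *Irf1*, and *Irf1* and *Stat2*. With vehicle *Irf1*, *Irf9* and *Stat2* thus stood at places 4, 5 and 7, and the ranges of *Irf9* and *Stat2* overlapped those of the genes next below. With RGS the factors took the 3 lowest places, and *Stat2* and *Irf9* still overlapped there.

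**Figure D3:**
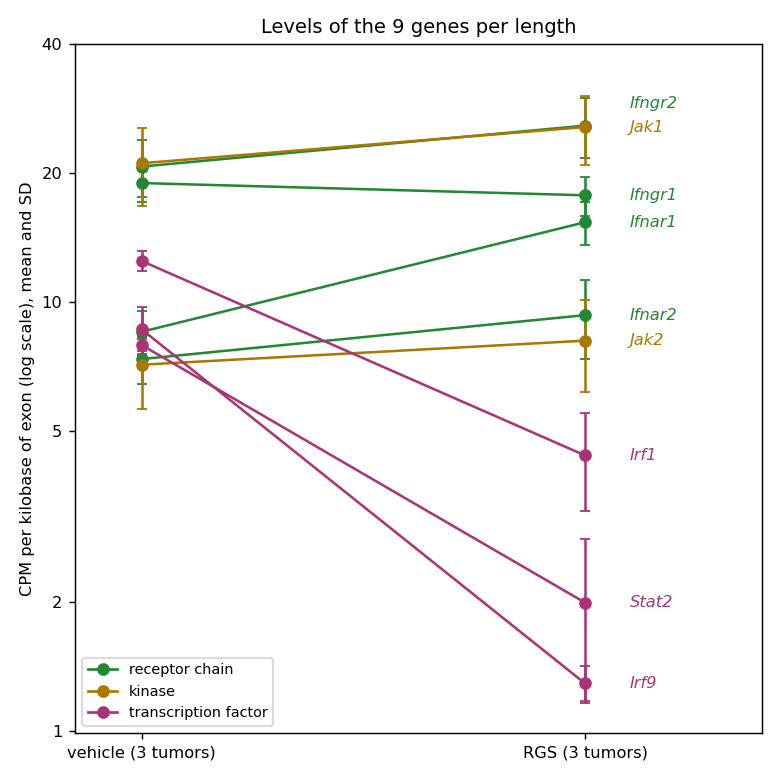
Mean CPM per kilobase of exon (vertical axis, log scale) of the 9 members in vehicle and RGS tumors, with SD over 3 tumors each. The lines of *Irf1*, *Stat2* and *Irf9* fall to 4.39, 1.99 and 1.29, below all receptor chains and kinases.

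Proportions between members that work together were compared within each tumor, as ratios of CPM per kilobase, with an exact two-sided permutation test over the 6 tumors. With 3 tumors against 3 this test cannot give a p under 0.1, and 5 ratios were compared. The size of a ratio depends on the exon lengths used, while its change between the groups does not. *Irf1* stood to *Irf9* at 1.52, 1.51 and 1.33 in vehicle tumors and at 2.46, 3.44 and 4.36 in RGS tumors. The ratio was thus higher in every RGS tumor, by 2.30-fold (exact permutation p = 0.1, adjusted over the 5 ratios 0.25). *Ifnar1* stood to *Ifnar2* at 1.33, 0.992 and 1.18 in vehicle tumors and at 1.78, 1.35 and 1.92 in RGS tumors. These ranges did not overlap either, though the gap between them was narrow, and the ratio was 1.44-fold higher with RGS (exact permutation p = 0.1, adjusted 0.25). The other ratios overlapped between the groups, with exact permutation p of 0.2 for *Ifngr1* to *Ifngr2*, 0.3 for *Irf9* to *Stat2* and 0.8 for *Jak2* to *Jak1*. *Irf9* to *Stat2* spread over 1.14, 0.664 and 0.435 in the RGS tumors, against 0.968, 1.08 and 1.21 with vehicle. The mean log2 CPM of the 3 factors minus that of the 6 receptor and kinase genes was -0.42, -0.24 and 0.05 in the vehicle tumors and -3.17, -2.41 and -2.33 in the RGS tumors. RGS replicate 10 thus had the lowest factors for its receptors and kinases, by this description.

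**Figure D4:**
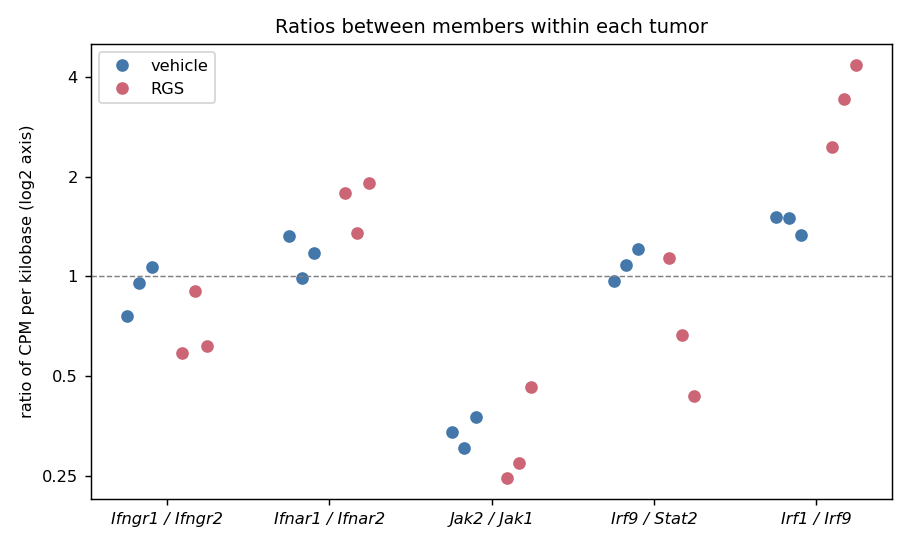
Ratio of CPM per kilobase between pairs of members (vertical axis, log2 scale) within each of 3 vehicle tumors (blue) and 3 RGS tumors (red). *Irf1* to *Irf9* is 1.33 to 1.52 with vehicle and 2.46 to 4.36 with RGS, and *Ifnar1* to *Ifnar2* also lies higher in every RGS tumor.

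Chromosome 16 carries 3 of the 4 receptor chains within 192.841 kilobases (chr16:91372783-91565623), in the order *Ifnar2*, *Il10rb*, *Ifnar1* and *Ifngr2*. Of the 10 genes of the table in this interval, only these 4 had enough reads for the test. *Il10rb*, a chain shared by the receptors for interleukin 10 and interferon lambda, was at 20.9, 20.2 and 14.1 CPM with vehicle and at 22.5, 34.0 and 31.1 CPM with RGS. It rose by 0.66 on the log2 scale (edgeR, adjusted p = 0.039). All 4 estimates of this cluster lay above 0, from 0.32 to 0.85. Of the 4 genes, 2 were called higher, *Il10rb* and *Ifnar1*, against 16.3% of all tested genes. The intervals of *Ifnar2* and *Ifngr2* included 0 and their groups overlapped, so a shared rise of the cluster was not shown. *Ifngr1*, on chr10:19591949-19610229, is the receptor chain outside the cluster.

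The other JAK, STAT and IRF genes counted 15, of which 13 were tested, 3 were lower, 2 were higher and 8 did not pass the test, with a median log2 fold change of -0.46. As shares of those tested, 23.1% were lower and 15.4% higher, against 16.5% and 16.3% of all tested genes. *Irf7*, the factor that amplifies type I interferon, was at 40.3, 34.6 and 38.4 CPM with vehicle and at 1.80, 2.26 and 1.84 CPM with RGS, which was 19.3-fold lower (edgeR, adjusted p = 1.3e-09). *Stat5a*, which serves growth hormone, prolactin and interleukin 2 receptors, had a log2 fold change of -1.46 (edgeR, adjusted p = 0.00536). In the other direction *Stat6*, the STAT of interleukin 4 and 13, rose by 0.48 on the log2 scale (edgeR, adjusted p = 0.0353). *Stat4* and *Irf4* had no counts.

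Of 18 inhibitors of the route tested, 4 were lower, 3 were higher and 11 did not pass the test, with a median log2 fold change of -0.08. The shares, 22.2% lower and 16.7% higher, were near those of all tested genes, so the count says little about inhibitors as a list and only single genes are described. *Usp18*, which is induced by type I interferon and blocks its receptor at IFNAR2, was at 15.9, 19.8 and 21.8 CPM with vehicle and at 1.18, 1.05 and 1.84 CPM with RGS, or 14.0-fold lower (edgeR, adjusted p = 2.7e-07). *Socs1*, which blocks JAK1 and JAK2 and is induced by interferon gamma, instead was at 18.6, 18.5 and 14.8 CPM with vehicle and at 32.5, 33.5 and 39.3 CPM with RGS, or 2.03-fold higher (edgeR, adjusted p = 0.00107). *Ptpn1*, the phosphatase PTP1B, which acts on JAK2 and TYK2, was 2.31-fold higher (edgeR, adjusted p = 1.6e-05). The remaining calls were *Pias4*, at a log2 fold change of 0.56, and *Socs4*, *Socs2* and *Socs3*, at -1.04, -1.04 and -0.60. 

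Messages for the interferons themselves were scarce. Of 21 ligand genes listed, 15 were in the table and only *Ifne*, an epithelial type I interferon, could be tested; its counts were 7, 2 and 0 with vehicle and 45, 0 and 6 with RGS, and it did not pass the test. *Ifng* had 0 counts in all 6 tumors, which allows up to 0.0856 to 0.226 CPM, depending on the library, if 3 counts are taken as the limit for a count of 0. *Ifnb1* had 3 counts in vehicle replicate 7, 4 in RGS replicate 11 and none elsewhere. *Ifna4*, *Ifna13* and *Ifnab* had reads in RGS tumors alone, with at most 22 counts, but none of them was deep enough for the test. Such limits allow for counting error alone, because the reads carry no molecular identifiers and several can come from 1 molecule.

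Among the genes at the end of the route, known targets of the STAT2 and IRF9 complex were mostly lower: 23 of 32 tested (71.9%) were lower, against 16.5% of all tested genes, 1 was higher and 8 did not pass the test. Of these 32, 13 reached the count filter through the vehicle group alone, which favors a fall among them. Their median log2 fold change was -3.06, or -2.87 when the 7 genes with at most 3 counts in every tumor of a group were set at their bound. *Bst2*, which tethers budding virus, was 7.38-fold lower, *Ifit3* was 29.6-fold lower and *Isg15*, a ubiquitin-like modifier, was 15.8-fold lower (edgeR, adjusted p = 8.6e-09, 1.1e-08 and 2.2e-08). *Ifitm3*, an antiviral membrane protein, was the exception at 2.47-fold higher, with 313 to 334 CPM in vehicle tumors and 684 to 1001 CPM in RGS tumors (edgeR, adjusted p = 8.3e-06). Of 25 tested targets of interferon gamma 14 were lower (56.0%) and 2 were higher (8%), against 16.5% and 16.3% of all tested genes. The other 9 did not pass the test, and the median log2 fold change was -2.06, or -1.81 with 4 genes at their bound. Of these 25, 7 reached the filter through the vehicle group alone, which favors a fall among them. The guanylate-binding protein gene *Gbp7* was 13.6-fold lower, the immunoproteasome gene *Psmb8* was 5.51-fold lower and the peptide transporter gene *Tap1* was 4.91-fold lower (edgeR, adjusted p = 1.1e-06, 4.9e-06 and 6.4e-06). *Cd274*, which encodes PD-L1, was at 8.16, 9.19 and 5.93 CPM with vehicle and at 31.4, 28.4 and 19.3 CPM with RGS, or 3.39-fold higher (edgeR, adjusted p = 7.3e-05). *Tap2* was 1.54-fold higher (edgeR, adjusted p = 0.0288). The ISRE letters lay in the promoter windows of 13 of 24 targets of STAT2 and IRF9 with a window, and of 11 of 23 targets of interferon gamma, against 3.99% of all 27025 genes with a window. The GAS letters lay in those of 7 of the 24 and 9 of the 23, against 9.55% of all genes with a window.

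**Figure D5:**
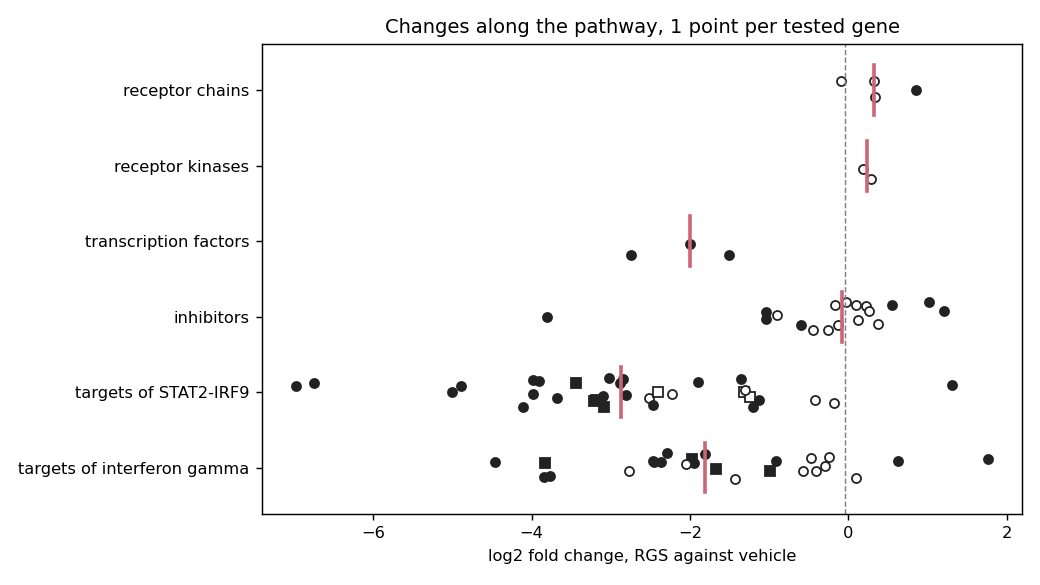
Log2 fold change of RGS against vehicle (horizontal axis) of each tested gene along the route, filled where the adjusted p is under 0.05, with squares for genes at or under 3 counts in every tumor of a group (drawn at their bound), a red bar at each list's median and a dashed line at the median of all tested genes (-0.05). Receptor chains and kinases lie near or right of the dashed line, the factors from -2.75 to -1.51, and most targets of both kinds left of the dashed line.

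Cell type markers, library depth and RNA makeup also differed between the groups. In bulk tissue, fewer cells of a type and less RNA per cell cannot be told apart. The defining markers *Ptprc* of leukocytes, *Adgre1* of macrophages, *Cd3e* and *Cd8a* of T cells and *Klrb1c* of NK cells had 0 counts in all 6 libraries, and so had *Tyr*, *Dct* and *Mlana* of pigment cells. These markers thus do not show the mixture of cells that the study describes, and which cells the libraries hold was not tested. Of the 5 leukocyte genes listed, 3 were tested and 2 were higher with RGS, *Laptm5* and *Cd53*. The summed level was 188 to 249 CPM with vehicle and 921 to 1032 CPM with RGS. Most of this sum was *Laptm5*, at 219, 158 and 153 CPM with vehicle and at 916, 952 and 834 CPM with RGS. Of 7 macrophage genes only 1 was tested, and it did not pass the test, at a log2 fold change of 0.24. Another 4 had at most 3 counts in any tumor, so the sum of this list rests on few genes. The summed macrophage list was 58.9 to 64.7 and 65.4 to 88.2 CPM, the T and NK cell list at most 0.602 and 1.42 CPM, and the fibroblast list 171 to 233 and 115 to 136 CPM. Within the fibroblast list *Pdgfra* and *Pdgfrb* were lower, while *Dcn* was 9.44-fold higher, at 1.14 CPM on average with vehicle and 10.7 CPM with RGS (edgeR, adjusted p = 6.2e-05). Of 6 dendritic cell genes only *Flt3* was tested, at 0.228 CPM on average with vehicle and 7.90 CPM with RGS, while *Itgax* and *Siglech* were at 0 and the other 3 had at most 8 counts in any tumor. Of 5 endothelial genes 2 were tested and 1 was higher, *Cdh5*, at 0.555 and 6.20 CPM on average. Both *Flt3* and *Cdh5* are low and *Flt3* reached the filter through the RGS group alone. B cell, keratinocyte and melanocyte lineage lists overlapped between the groups. Their part in the fall of *Stat2*, *Irf9* and *Irf1* and the rise of *Ifnar1* was not tested. Libraries held 22793087 to 32555494 counts with vehicle and 13837932 to 21617368 with RGS, and depth therefore cannot be told apart from treatment. The same 4 members were called with counts thinned to the smallest library, a setting that evens the totals and does not separate depth from treatment. Mitochondrial genes took 2.13 to 3.20% of counts with vehicle and 5.60 to 8.22% with RGS, and ribosomal protein genes 5.66 to 10.2% and 3.15 to 3.68%. The same 4 members were called with both classes left out. That setting drops these genes from the fit and does not test other differences in RNA makeup.

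Several genes had a profile over the 6 tumors much like that of a member, by Pearson's r of log2 CPM among 10068 genes with a mean of at least 5 CPM. Because the tumors form 2 groups, such an r mostly reflects the difference between them and is a description only. The profile most like that of *Irf9* was that of *Kctd9* (r = 0.999), followed by the spindle checkpoint kinase gene *Bub1* and *Gypc* (both r = 0.997). *Stat2* was most like *Phf11d* (r = 0.997), which was at 15.0 CPM on average with vehicle and 0.431 with RGS, then *Sp140* (r = 0.996) and *Aox1* (r = 0.995). *Irf1* was most like *Hexa* (r = 0.999), *Zwilch* (r = 0.998) and *Dzip1* (r = 0.997), and *Ifnar1* was most like *Wwox* and *Pxdn* (both r = 0.997) and *Slc22a23* (r = 0.996). For the members that were not called, the leading genes were *Cdadc1* for *Ifngr1* (r = 0.972), *Slc39a6* for *Ifngr2* (r = 0.988), *Ddx49* for *Ifnar2* (r = 0.983), *Zzef1* for *Jak1* (r = 0.998) and *Col1a1* for *Jak2* (r = 0.982). Among the members themselves *Irf1* and *Stat2* were the most alike, at r = 0.995 over the 6 tumors, and *Irf1* and *Ifnar1* the most opposed, at -0.982. *Ifngr1* and *Jak2*, neither of which separated the groups, ran opposite to each other at r = -0.941.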

How the data were processed

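Bulk RNA-seq of 3 vehicle and 3 RGS tumors was analysed. The values deposited by the authors are raw counts of reads for each gene, without normalization. Per the submitters' processing notes, reads of 150 bases were handled with cutadapt 1.18, FastQC 0.11.7, STAR 2.7.1a and featureCounts 1.6.4 on mm10. The strand setting is not given in the sources used here. Gene positions matched GENCODE M21 for all 38927 shared identifiers.

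Counts were compared in R 4.3.3 with edgeR 4.0.16, after a filter that asked for a median of 5 or more counts in either group (at least 1), then TMM factors (0.920 to 1.08), the quasi-likelihood F test and Benjamini-Hochberg adjustment over 15355 genes. Standard errors are the log2 fold change over the square root of F. CPM refers to the TMM-scaled library; before scaling, libraries held 13837932 to 32555494 counts. Ribosomal protein genes are those with Rpl or Rps names. A bound sets each library of a group at 3 counts. No replicate pair agreed within sampling noise (chi-square per degree of freedom 19.6 to 125). The script was tested on simulated data.

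The members and the gene lists were chosen with earlier results of these data known. Named are all members, up to 4 genes per list and direction with the smallest adjusted p and groups that do not overlap, the genes most like each member (3 for the called members), and genes that overlap or lie among the members. Some genes of the lists are counted but not reported here by name. Marker genes, *Ifng*, *Ifnb1*, *Ifna4*, *Ifna13* and *Ifnab* were named for their counts. Alternatives were DESeq2 1.42.0, limma 3.58.1 (voom with quality weights), robust dispersions, 4 scalings, 3 filters, thinning, 2 thresholds and each tumor left out.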

Additional observations from a re-analysis of the deposited data

How the results depend on the processing

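*Stat2*, *Irf9* and *Irf1* were called lower, 3 of 3, under every alternative run, with log2 fold changes from -2.33 to -1.71, -2.88 to -2.64 and -1.67 to -1.31. *Ifnar1* was called higher, at 0.71 to 0.95, under all but a threshold that also asked for a log2 fold change of 1 or more in size, which left 0 members higher. The count of members higher was 2 with limma voom, through *Jak1* (log2 fold change 0.36, adjusted p = 0.0275), and 1 to 2 with a tumor left out, where *Jak1* joined without vehicle replicate 7. Over all genes 5036 were called, 3169 at an adjusted p under 0.01, 2618 with the added fold threshold and 3493 to 5249 with a tumor left out. With library size as the only scaling 62.8% of calls were lower, against 50.3%, and the median log2 fold change of all tested genes was -0.19. *Ifngr1* changed sign to 0.0017 without vehicle replicate 8 (-0.18 to 0.0017 over the tumors left out) and *Jak2* to -0.038 without RGS replicate 12 (-0.038 to 0.37), neither of which was called. The log2 difference of *Jak2* to *Jak1* was -0.11, with a range of -0.39 to 0.073 when a tumor was left out. The cause of these shifts beyond the tumor left out was not tested. No paired analysis was possible because the groups share no replicate number. Genes whose intervals include 0 were not shown to be unchanged.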

Other observations

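Other cytokine receptors that signal through JAK kinases were called in both directions. Of 33 listed, 21 were tested, 3 were lower, 6 were higher and 12 did not pass the test, with a median log2 fold change of 0.25. That is 14.3% lower and 28.6% higher, against 16.5% and 16.3% of all tested genes, and no test was made of the difference. Of the 21 tested, 4 reached the count filter through the RGS group alone, which favors a rise among them. Another 2 reached it through the vehicle group alone, which favors a fall. Their summed level was lower with RGS, at 887 to 965 CPM against 1131 to 1209 CPM, with *Ghr* as its largest part. *Ghr*, the growth hormone receptor, was at 617, 664 and 646 CPM with vehicle and at 283, 260 and 218 CPM with RGS, or 2.53-fold lower (edgeR, adjusted p = 2.4e-06). *Il13ra1* and *Lifr*, the latter a chain of the leukemia inhibitory factor receptor, had log2 fold changes of -0.76 and -0.75 (edgeR, adjusted p = 0.0145 and 0.0493).

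*Il4ra*, which signals through STAT6, was at 131, 119 and 105 CPM with vehicle and at 262, 239 and 234 CPM with RGS, or 2.07-fold higher (edgeR, adjusted p = 3.9e-05). *Crlf2*, the receptor for the epithelial cytokine TSLP, was 1.79-fold higher (edgeR, adjusted p = 0.00212). *Il2rg*, the common gamma chain, was at 0.171, 0.0713 and 0.172 CPM with vehicle and at 1.85, 2.94 and 4.47 CPM with RGS. It had a median of 4 counts with vehicle and reached the filter through the RGS group alone, so its p is not given. *Cntfr*, which reached the filter in the same way, had no read in any vehicle tumor and 1.89, 0.301 and 2.32 CPM in the RGS tumors. The RGS mean was at least 14.1-fold higher against a floor of 3 counts per vehicle library. This bound does not hold for RGS replicate 11 alone, which had 4 counts.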
